A study of Rattus norvegicus with 10 samples.

Results

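Long non-coding RNA (lncRNA) loci that were assembled with several isoforms were followed in rat cerebral cortex after stroke. Only loci with no row of the same locus number in the mRNA table were taken. A locus was a member if the lncRNA table held 2 or more isoforms of it and the mRNA table held none, a rule that uses identifiers alone and no expression value. By this rule 2364 of 21955 lncRNA loci were members, with 6491 of the 31183 lncRNA isoforms. The other lncRNA loci were 16308 with a single isoform and 3283 that also had rows in the mRNA table. Levels are the authors' FPKM (fragments per kilobase of transcript, scaled to the fragments of the library), summed over the isoforms of a locus.

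Cortex came from male Sprague-Dawley rats, aged 8 to 9 weeks and weighing 240 ± 20 g by the labels. In 5 libraries (MCAO/R, replicates 1 to 5) the middle cerebral artery had been occluded for 2 h, followed by 24 h of reperfusion, and 5 libraries (sham, replicates 6 to 10) came from the sham group. All 10 libraries were made from total RNA depleted of ribosomal RNA, with a directional kit, and no group carried a transgene or drug by the labels. Whether the 10 libraries are 10 animals is not in the labels; the p-values therefore rest on the spread of these samples, which may in part be technical.

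An lncRNA is a long transcript with no recognised protein-coding frame. Like protein-coding genes, lncRNA genes can give several isoforms through alternative promoters, splicing and polyadenylation, and a change in RNA output can therefore take 2 forms: a change in the level of the whole locus, or a change in which isoform makes up most of it. Occlusion with reperfusion is a model of ischaemic stroke with restored flow, in which cortical neurons are lost, glia react and blood cells enter the tissue. In bulk tissue, fewer cells of a type and less RNA per cell cannot be told apart.

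The loci carry assembler identifiers only. Such labels do not occur in gene tables, so the 0 matches to the table of rat genes do not show whether a locus is a known gene. Loci are therefore given by identifier, with no gene name, position, sequence or known function. The tissue was not checked against its marker genes. Library depth is unknown, because FPKM tables carry no totals, and no interval that needs it is given. An exact 0 can then be a failed estimate, and such a value is called "listed at 0".

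Most members had few isoforms: 1551 (65.6%) had 2, 450 had 3, 176 had 4 and 187 had 5 or more, of which 24 had 10 or more. In 2359 of the 2364 loci the isoform numbers ran from 1 to the highest listed number without a gap. Isoforms numbered above the highest listed one would not be seen. Loci with isoforms numbered in the mRNA table had been left out by the rule. The median member had a mean of 0.456 FPKM over the 10 libraries, with quartiles at 0.257 and 0.791, and 386 members reached 1 FPKM. Level went with isoform number, but a sum over more isoforms tends to be higher for that reason alone. Whether the level per isoform differed with isoform number was not examined. The median was 0.339 FPKM for loci with 2 isoforms, 0.576 with 3, 0.808 with 4 and 1.22 with 5 or more. Just outside the rule, lncRNA-only loci with 1 isoform had a median of 0.142 FPKM, close to the 0.157 FPKM of a single isoform of a member locus, and loci with rows in both tables had 0.250 FPKM for their lncRNA rows.

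**Figure D1:**
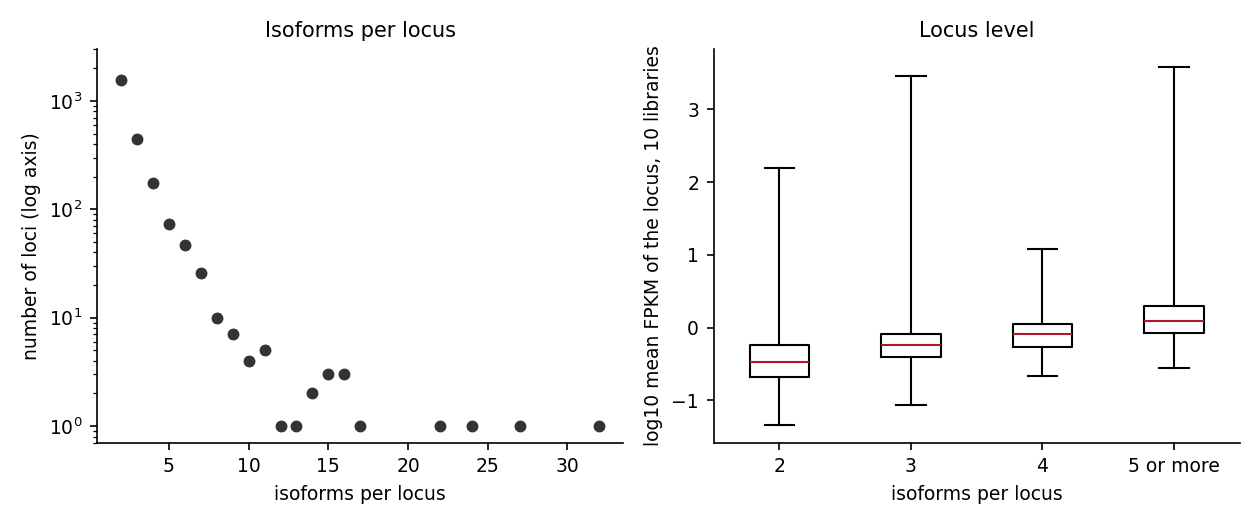
Left, number of loci (log axis) by the number of isoforms per locus. Right, log10 of the locus mean FPKM over 10 libraries by isoform number. Boxes are at the quartiles, red lines at the medians, and whiskers reach the lowest and highest locus. The medians rise from 0.339 FPKM with 2 isoforms to 1.22 FPKM with 5 or more. Each locus level is a sum over its isoforms, which tends to be higher with more of them.

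Detection was more even for loci than for isoforms, as it must be, since a sum is above 0 whenever any of its isoforms is. The summed locus was above 0 in every library for 1611 members (68.1%), while 1607 of the 6491 isoforms (24.8%) were above 0 in every library and 2694 (41.5%) were listed at 0 in 5 or more of the 10. Isoforms listed at 0 in every library of a group were about as many on both sides, 629 for MCAO/R and 601 for sham. A library held between 3700 and 4190 member isoforms above 0 in MCAO/R and between 3983 and 4162 in sham.

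The summed FPKM of all members averaged 8276 ± 2717 over the MCAO/R libraries and 13109 ± 4816 over the sham libraries (SD, n = 5 each), with overlapping groups. Between 49.4% and 84.8% of that sum in a library came from the 3 most abundant members. Without these 3 loci the sums were 2296 ± 215 and 2605 ± 385 FPKM, again overlapping. The number of members at 1 FPKM or more was 302, 292, 398, 343 and 363 in MCAO/R replicates 1 to 5 and 410, 749, 448, 598 and 546 in sham replicates 6 to 10, so every MCAO/R library was below every sham library. These counts rest on values as deposited, and the separation was not particular to members. Loci with rows in both tables also lay apart, with 419 to 524 in MCAO/R libraries and 554 to 778 in sham libraries. For loci with 1 isoform the ranges were 213 to 393 and 301 to 1285, which overlap. Relative to each locus's own mean, the median of the 1611 members above 0 everywhere was -0.45 ± 0.18 (log2 units, SD) for MCAO/R and 0.12 ± 0.27 for sham. On that measure the groups overlapped, with MCAO/R replicate 3 at -0.16 and sham replicate 6 at -0.19. The same measure was -0.47 and 0.16 for loci with 1 isoform and -0.38 and 0.10 for loci with rows in both tables, and the difference between the 3 kinds of locus was not tested.

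The first comparison asked whether the level of the loci differed between MCAO/R and sham cortex. Loci that passed were mostly lower after MCAO/R in the values as deposited. The few with very large changes were mostly higher, and their number depended strongly on the pseudocount. Of the 2318 members that averaged 0.1 FPKM or more, 139 were higher and 298 lower in MCAO/R (limma on log2(FPKM + 0.1), Benjamini-Hochberg adjusted p under 0.05 over all 14944 lncRNA loci tested). These 437 loci are 18.9% of the members tested, where 9.90% of all lncRNA loci tested were called. By direction, 6.00% of members were higher and 12.9% lower, against 2.26% and 7.64% of all loci. An unadjusted p under 0.05 was reached by 894 members (38.6%), against 28.0% of all loci. The remaining 46 members were under 0.1 FPKM and were not tested.

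Of the called members, 62 were at least 4-fold higher and 19 at least 4-fold lower in MCAO/R (2.67% and 0.820% of the members, where 0.997% and 0.401% of all loci were called at that size). The median log2 fold change over the members tested was -0.37, beside -0.39 over all lncRNA loci tested, and 67.3% of members lay below 0, beside 70.4%. In 97 members every MCAO/R library was above every sham library and in 189 every one was below, 4.18% and 8.15% of the members, where 1.79% and 6.00% of all loci tested lay apart in these directions.

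**Figure D2:**
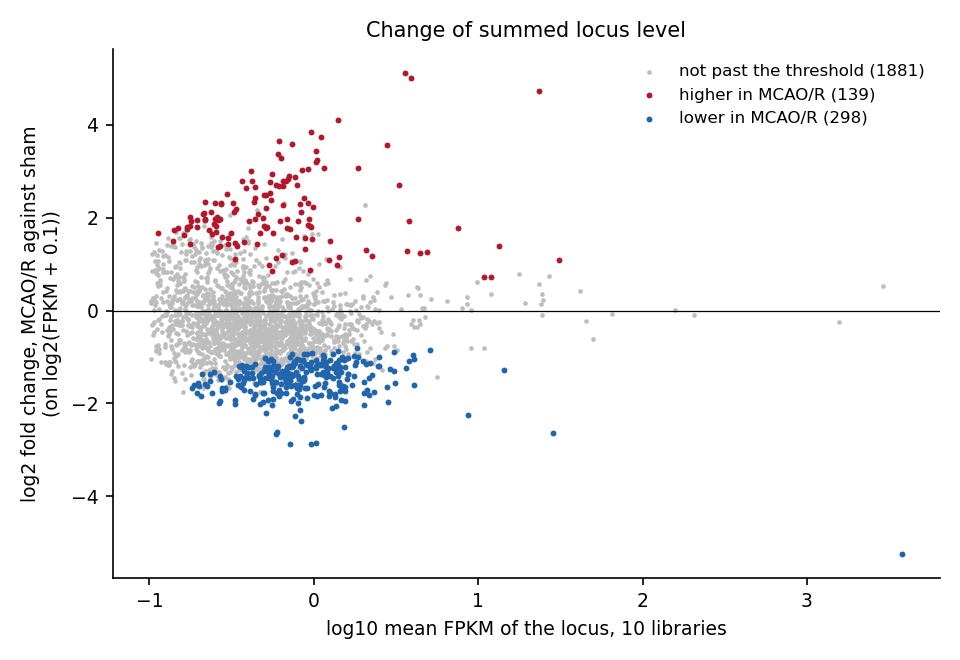
Log2 fold change of the summed locus level, MCAO/R against sham on log2(FPKM + 0.1), against log10 mean FPKM for the 2318 loci tested. Red points are the 139 loci called higher and blue points the 298 called lower; most called loci lie between 0.1 and 10 FPKM, and the lowest point on the right is MSTRG.59534.

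The direction of the called loci turned with the scaling between libraries. Quantile normalization gave 148 higher and 88 lower, and factors taken from lncRNA rows gave 155 and 57. Factors from annotated transcripts gave 127 higher and 530 lower, and scaling both tables to equal sums gave 132 and 431. These scalings moved the median over all lncRNA loci to values between -0.58 and 0.06. The excess of higher over lower loci among called changes of 4-fold or more held under each of these scalings, with 84 and 9, 92 and 6, 57 and 47, and 62 and 31 in the same order. Few changes of this size remained with a larger pseudocount: 9 higher and 3 lower with 0.5, and 4 and 2 with 1. A locus could also reach the level asked for testing through MCAO/R alone or sham alone. How many of the 4-fold loci did so was not counted. The number called also moved with single libraries: 217, 288, 575, 262 and 208 members were called without MCAO/R replicates 1 to 5, and 523, 171, 362, 228 and 269 without sham replicates 6 to 10. In each of the 20 alternatives run, the share called was larger among members than among all lncRNA loci. The units are unlike: each member is a sum of several isoforms, while 10238 of the 14944 loci tested are lncRNA-only loci with 1 isoform. With each isoform tested by itself, 2.36% of member isoforms and 2.09% of all lncRNA isoforms were called. The part of summing in the larger share was not tested.

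Members had a higher level than most lncRNA loci, and the share called was larger at higher levels up to 5 FPKM, so it is also given within ranges of level. At 0.1 to 0.5 FPKM 10.0% of 1238 members were called, beside 5.45% of all lncRNA loci in that range. The shares were 24.8% and 19.5% at 0.5 to 1 FPKM, 37.4% and 32.0% at 1 to 5 FPKM, and 28.9% of 38 members and 21.7% of 161 loci at 5 FPKM or more. The loci of each range include the members, and the difference was not tested. The direction also varied with level: 60 members were called higher and 64 lower at 0.1 to 0.5 FPKM, 51 and 121 at 0.5 to 1 FPKM, 22 and 108 at 1 to 5 FPKM, and 6 and 5 at 5 FPKM or more. Of the called members 51.6%, 70.3%, 83.1% and 45.5% were lower in these ranges. Over all lncRNA loci called, these shares were 68.9%, 81.7%, 86.5% and 65.7%, and the difference was not tested. By isoform number, 15.3% of members with 2 isoforms were called, 23.2% with 3, 30.7% with 4 and 26.2% with 5 or more, while their median levels increase over these 4 classes.

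Both members with the largest rise were close to silent in sham cortex. MSTRG.61854, with 2 isoforms, was at 5.79, 0.257, 3.58, 21.9 and 4.22 FPKM in MCAO/R replicates 1 to 5. In sham it was listed at 0 in 4 libraries and stood at 0.0520 FPKM in replicate 7. The groups did not overlap, and MCAO/R replicate 2 was the lowest of its group. The log2 fold change was 5.11 (SE 0.71, limma adjusted p = 0.00112). Leaving out MCAO/R replicate 2 made it 5.95, and leaving out replicate 4 made it 4.47. MSTRG.61854.1 made up all of the locus in MCAO/R replicates 1 and 2, 96.0% in replicate 4, and less than the other isoform in replicates 3 and 5 (28.7% and 45.8%).

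MSTRG.128663, also with 2 isoforms, was at 12.9, 0.331, 5.10, 16.7 and 4.02 FPKM in MCAO/R replicates 1 to 5. In sham it was listed at 0 in replicates 6 and 8 and stood at 0.0482, 0.128 and 0.0729 FPKM in replicates 7, 9 and 10. As for MSTRG.61854, MCAO/R replicate 2 was the lowest library of its group and still above all sham libraries. The log2 fold change was 5.01 (SE 0.70, limma adjusted p = 0.00114), and 5.86 without that replicate. Here MSTRG.128663.1 made up 91.3% or more of the locus in each of the 8 libraries with any signal. MSTRG.61854 and MSTRG.128663 reached the levels asked for testing and for naming through MCAO/R alone, with sham means of 0.0104 and 0.0498 FPKM. With values this close to 0 in sham, the fitted fold changes depend on the pseudocount. With a pseudocount of 1 they were 2.42 for MSTRG.61854 and 2.59 for MSTRG.128663, both still past the threshold.

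The member with the largest fall, MSTRG.59534, was also the most abundant of all members. It had 7 isoforms and stood at 5879, 7446, 6883, 6098 and 6199 FPKM in sham replicates 6 to 10. In MCAO/R replicates 1 to 5 it was at 19.0, 4568, 748, 18.8 and 121 FPKM. Sham libraries lay within a narrow range, while MCAO/R libraries ran from the highest, replicate 2, close to the sham level, down to replicates 1 and 4. Its log2 fold change was -5.24 (SE 1.22, limma adjusted p = 0.0175). Without MCAO/R replicate 1 it was -4.44 with an adjusted p of 0.0561, without replicate 2 -6.42 (adjusted p = 0.00120) and without replicate 4 -4.44 (adjusted p = 0.0458). Under quantile normalization and under factors from lncRNA rows the adjusted p was 0.0632 and 0.0986.

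The other named fall was at a low level. MSTRG.222822, with 4 isoforms, was at 1.59, 1.98, 1.81, 0.513 and 0.792 FPKM in sham replicates 6 to 10 and at 0.0392, 0.155, 0.104, 0.137 and 0 FPKM in MCAO/R replicates 1 to 5. The groups did not overlap. Its log2 fold change was -2.88 (SE 0.40, limma adjusted p = 0.00112), and it passed under each of the 20 alternatives. The locus reached the levels asked for through sham alone, with means of 1.34 FPKM in sham and 0.0871 FPKM in MCAO/R. Of its isoforms MSTRG.222822.1 and MSTRG.222822.3 fell on their own, by 2.23 and 1.75 on the log2 scale (limma adjusted p = 0.0311 and 0.0492); these calls were lost in 9 and 13 of 16 alternatives.

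**Figure D3:**
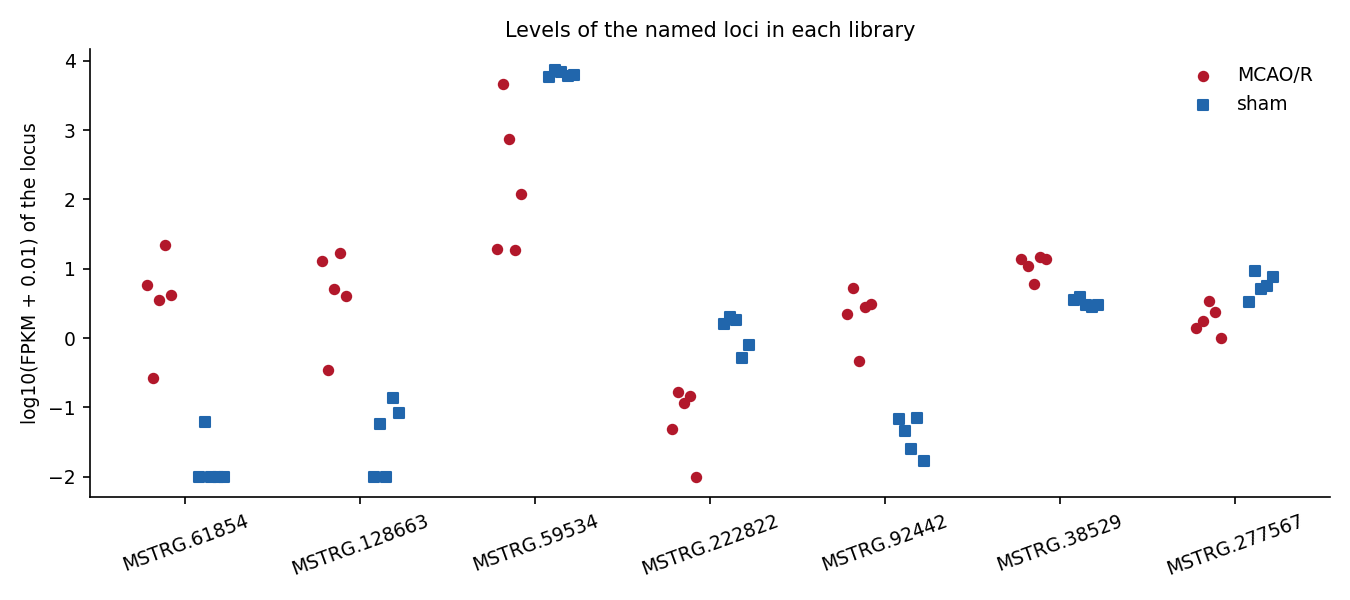
Log10(FPKM + 0.01) of 7 named loci in each library, red circles for MCAO/R and blue squares for sham; points at -2 are listed at 0. MSTRG.61854, MSTRG.128663, MSTRG.92442 and MSTRG.38529 are higher in every MCAO/R library than in any sham library, MSTRG.59534 and MSTRG.222822 are lower in every one, and MSTRG.277567 overlaps through MCAO/R replicate 3 and sham replicate 6.

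The second comparison asked whether the change of a locus was seen in its single isoforms. Few isoforms passed: 48 higher and 54 lower of 4323 tested, together 2.36% (limma, adjusted over 20293 lncRNA isoforms, of which 2.09% were called). Of all isoforms tested 0.670% were called higher and 1.42% lower. An unadjusted p under 0.05 was reached by 989 member isoforms (22.9%), where it was reached by 22.9% of all isoforms. The split turned with scaling: it was 62 and 13 with quantile normalization, 72 and 11 with factors from lncRNA rows, 58 and 156 with equal sums and 62 and 265 with factors from annotated transcripts. The number called was 25, 63, 300, 24 and 20 without MCAO/R replicates 1 to 5, and 187, 21, 39, 17 and 37 without sham replicates 6 to 10.

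Of the 437 loci called at the level of the sum, 353 (80.8%) had 0 isoforms called, 77 had 1 and 7 had 2 or more. The 2 tests differ: 4323 of the 6491 member isoforms were tested, with adjustment over 20293 isoforms instead of 14944 loci. The share for other lncRNA loci with several isoforms is not given, so it is not read as a trait of the members. The called isoforms lay in 95 loci, of which 84 were also called as a sum. In 7 loci several isoforms were called, all in the same direction within a locus: higher in 5 and lower in 2. Isoforms of 1 locus called in opposite directions were found in 0 loci, and 0 of the 437 called loci held an isoform with an unadjusted p under 0.05 against the direction of its locus. The 437 loci were picked by the sum of these same isoforms, which makes such an isoform unlikely, so no conclusion is drawn from that 0. The leading isoform varied more between libraries than the sum in most loci. In the 970 members tested for isoform balance, described further on, the median within-group SD on the log2 scale was 0.55 for the locus sum and 0.75 for its leading isoform, and in 648 of them the leading isoform had the larger SD.

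Of the 7 loci with several called isoforms, MSTRG.38529 was the most abundant, and it rose. Its 4 isoforms summed to 13.7, 10.8, 5.96, 14.9 and 13.6 FPKM in MCAO/R replicates 1 to 5 and to 3.52, 3.85, 3.02, 2.84 and 3.02 FPKM in sham replicates 6 to 10. The groups did not overlap, and MCAO/R replicate 3 was the lowest of its group. The locus rose by 1.77 in log2 units (SE 0.26, limma adjusted p = 0.00158). Isoform MSTRG.38529.1 rose by 2.18 (adjusted p = 0.00504) and MSTRG.38529.4 by 1.66 (adjusted p = 0.0297), while MSTRG.38529.3 and MSTRG.38529.2 had log2 fold changes of 0.95 and 0.76 and did not pass. The locus and MSTRG.38529.1 passed under every alternative run, and MSTRG.38529.4 lost its call in 9 of 17.

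MSTRG.277567 had 2 isoforms, and both fell. The locus was at 1.41, 1.76, 3.46, 2.38 and 0.999 FPKM in MCAO/R replicates 1 to 5 and at 3.26, 9.17, 5.13, 5.59 and 7.70 FPKM in sham replicates 6 to 10. The groups overlapped only through MCAO/R replicate 3 and sham replicate 6. The log2 fold change was -1.61 for the locus (SE 0.33, limma adjusted p = 0.00983), -1.51 for MSTRG.277567.1 (adjusted p = 0.0444) and -1.63 for MSTRG.277567.2 (adjusted p = 0.0439). The isoforms kept nearly the same proportion in each library: MSTRG.277567.1 held between 54.7% and 65.2% of the locus. Each isoform lost its call in 11 of 17 alternatives, and the sum kept its call in all 20.

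The third comparison asked whether the make-up of the loci changed. The leading isoform was defined for each locus as the one with the highest mean share over the libraries in which the locus was above 0, and was set against the sum of the other isoforms. Of 970 members with enough signal (a locus mean of at least 0.5 FPKM and other isoforms of at least 0.1), only 1 passed (limma on log2 ratios with a pseudocount of 0.1, adjusted over 1695 lncRNA loci with several isoforms, of which 0.0590% were called). An unadjusted p under 0.05 was reached by 65 members (6.70%), where 6.37% of all loci tested reached it. The leading isoform was higher relative to the others in 36 of these and lower in 29. Of the same 970 loci, 281 (29.0%) were called for the level of the sum.

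A balance is measured less precisely than a level. The median SE over these 970 loci was 0.83 on the log2 scale for the balance and 0.33 for the level of the sum. The differences in balance had a median of 0.06 with quartiles at -0.57 and 0.67, and 678 loci (69.9%) lay within 1 of 0. Changes in balance of about 2-fold in a single locus would mostly not have been detectable with this spread, so the count does not show that isoform balance was equal.

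The single locus that passed, MSTRG.92442, was close to silent in sham cortex. Its 8 isoforms summed to 2.20, 5.35, 0.453, 2.75 and 3.11 FPKM in MCAO/R replicates 1 to 5 and to 0.0572, 0.0352, 0.0149, 0.0606 and 0.00701 FPKM in sham replicates 6 to 10. The groups did not overlap, and the locus rose by 4.11 in log2 units (SE 0.47, limma adjusted p = 0.000222). MSTRG.92442.8 held the whole of the small sham signal in 4 of 5 libraries (27.7% in replicate 9, where MSTRG.92442.4 held 72.3%) and between 0% and 8.84% of the locus in MCAO/R. In MCAO/R the largest share fell to MSTRG.92442.2 in replicates 2, 4 and 5 (43.8%, 31.7% and 47.6%) and to MSTRG.92442.1 in replicates 1 and 3 (51.8% and 56.9%). The log2 ratio of MSTRG.92442.8 to the rest differed by -3.64 (SE 0.50, limma adjusted p = 0.0280), although MSTRG.92442.8 itself had the higher mean in MCAO/R (0.157 against 0.0262 FPKM). The locus reached the minimum level through MCAO/R alone, and its sham sums are below the pseudocount, which holds the sham ratio near 0. The value therefore cannot be told apart from the rise of the locus and shows no separate change of make-up. The call was lost in 10 of 17 alternatives, with adjusted p from 0.0113 to 0.128. It was lost without MCAO/R replicate 2, 4 or 5 and without sham replicate 6, 7, 8 or 10.

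The leading isoform also differed between libraries of the same group. In the 1080 members with a mean of at least 0.5 FPKM, the leading isoform held a median share of 62.2%, with quartiles at 48.4% and 80.3%. The same isoform was highest in all 10 libraries in 114 loci (10.6%), in all 5 MCAO/R libraries in 290 and in all 5 sham libraries in 254. Between 2 libraries, a median of 42.8% of loci had another highest isoform within MCAO/R (38.3% to 46.0% over 10 pairs), 43.6% within sham (42.8% to 45.8%) and 43.3% between the groups (41.6% to 47.5% over 25 pairs). The 3 ranges overlapped, so pairs of libraries from different groups did not stand apart from pairs of the same group on this measure.

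By group means of the shares, another isoform led in MCAO/R than in sham in 275 of the 1080 loci (25.5%). In 85 of them the leader of each group had at least 1.5 times the mean share of the other group's leader. In 7 further loci every sham library was listed at 0, so no isoform led there. An isoform that was highest in all 5 MCAO/R libraries with another highest in all 5 sham libraries was found in 0 loci. Among loci whose lncRNA rows stand beside rows of the mRNA table, 776 had several lncRNA isoforms and this level. In these, the leader differed between group means in 30.2% and 0 loci were exchanged in every library.

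Loci with more isoforms had less stable leaders. In such loci more isoforms can take the lead, and the leading share can be lower. With 2 isoforms the leading isoform held a median of 77.6% and differed between group means in 15.8% of 486 loci. With 5 or more isoforms these values were 34.9% and 50.5% of 182 loci. By level, the same isoform was highest in all 10 libraries in 9.22% of loci at 0.5 to 1 FPKM, 11.2% at 1 to 5 FPKM and 28.9% of the 38 loci at 5 FPKM or more. The leader differed between group means in 23.6% of the 313 loci called at the level of the sum and in 26.2% of the 767 that were not called.

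The share of the leading isoform, taken as the median over loci in each library, was slightly higher in MCAO/R. The MCAO/R libraries averaged 67.4 ± 2.5% and the sham libraries 62.4 ± 1.8% (SD, n = 5 each). The lowest MCAO/R library, replicate 3, stood at 64.295% and the highest sham library, replicate 6, at 64.290%. Averaged over the libraries of a group first, the median locus had 64.0% in MCAO/R and 62.6% in sham, a smaller gap. Beside this, the level of the loci was lower on average in MCAO/R, and the MCAO/R and sham libraries nearest to each other in share, replicates 3 and 6, were also those nearest in level. The part of the level in this difference was not tested.

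**Figure D4:**
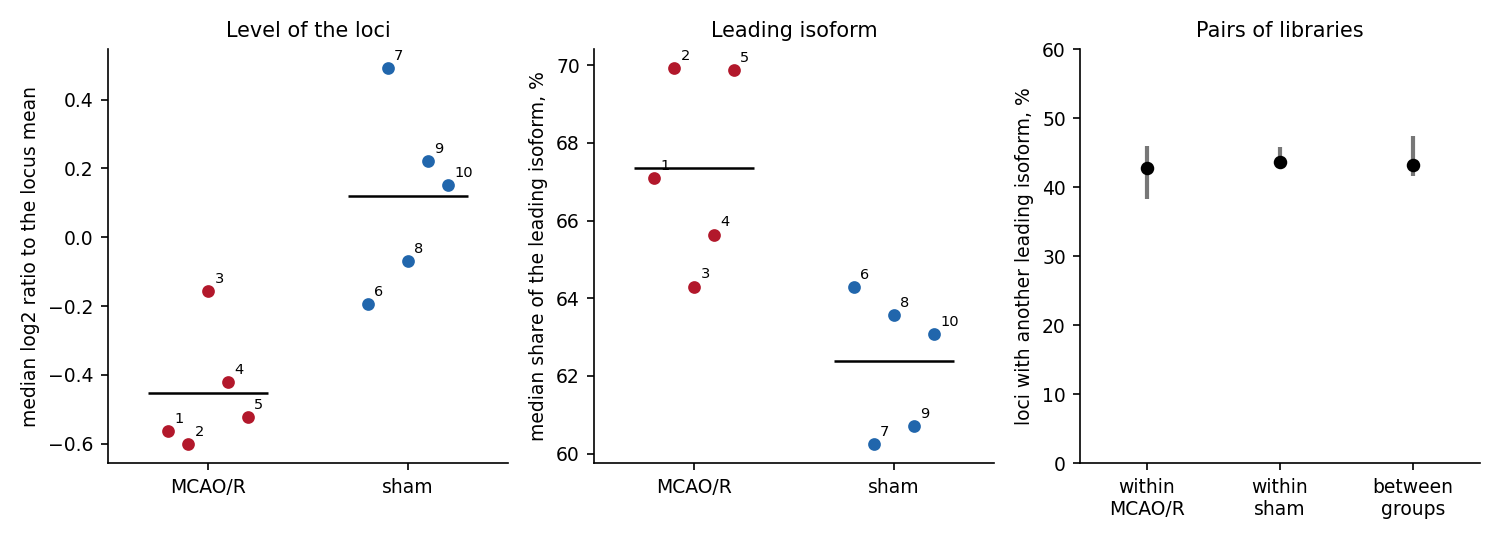
Left, median log2 ratio of locus level to the locus mean over 1611 loci, and centre, median share of the leading isoform over 1080 loci, each point a library labelled with its replicate number and each line a group mean. Right, share of loci in which the highest isoform differed between 2 libraries, with the median (point) and range (line) over pairs; the medians are 42.8%, 43.6% and 43.3%.

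The 3 most abundant members differed in how sum and make-up varied. In MSTRG.59534 the isoform MSTRG.59534.7 held 100% of the locus in sham replicates 7, 8 and 9, but 51.4% in replicate 6, where MSTRG.59534.6 held 48.6%, and 50.6% in replicate 10, where MSTRG.59534.3 held 49.4%. The sum differed little among these 5 libraries. As a single isoform MSTRG.59534.7 did not pass (log2 fold change -5.84, SE 1.75, limma adjusted p = 0.0790), although the sum did. The isoform passed in 3 of 17 alternatives and stayed uncalled in 14, with limma adjusted p from 0.0220 to 0.352. The lowest of these came without MCAO/R replicate 2, with a log2 fold change of -7.27. In MCAO/R replicate 3 most of the locus was MSTRG.59534.1, with 67.5%, an isoform listed at 0 in the other 9 libraries.

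MSTRG.290313, with 3 isoforms, varied widely in level without regard to group. It stood at 221, 3366, 6415, 5278 and 143 FPKM in MCAO/R replicates 1 to 5 and at 948, 9511, 2633, 112 and 220 FPKM in sham replicates 6 to 10 (log2 fold change 0.52, SE 1.30, limma adjusted p = 0.828). Its make-up was nearly constant, with MSTRG.290313.1 at 98.7% or more in every library. MSTRG.249705, with 10 isoforms, varied in both level and make-up. Its sum was 1840, 1451, 251, 331 and 5134 FPKM in MCAO/R replicates 1 to 5 and 1878, 1056, 1942, 737 and 975 FPKM in sham replicates 6 to 10 (log2 fold change -0.26, SE 0.87, limma adjusted p = 0.877). In these libraries 6 different isoforms were the highest, and 0 of the 10 isoforms were above 0 in every library. MSTRG.249705.8, its leading isoform by mean share, held 84.6% in MCAO/R replicate 1 and was listed at 0 in replicates 3 and 4.

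**Figure D5:**
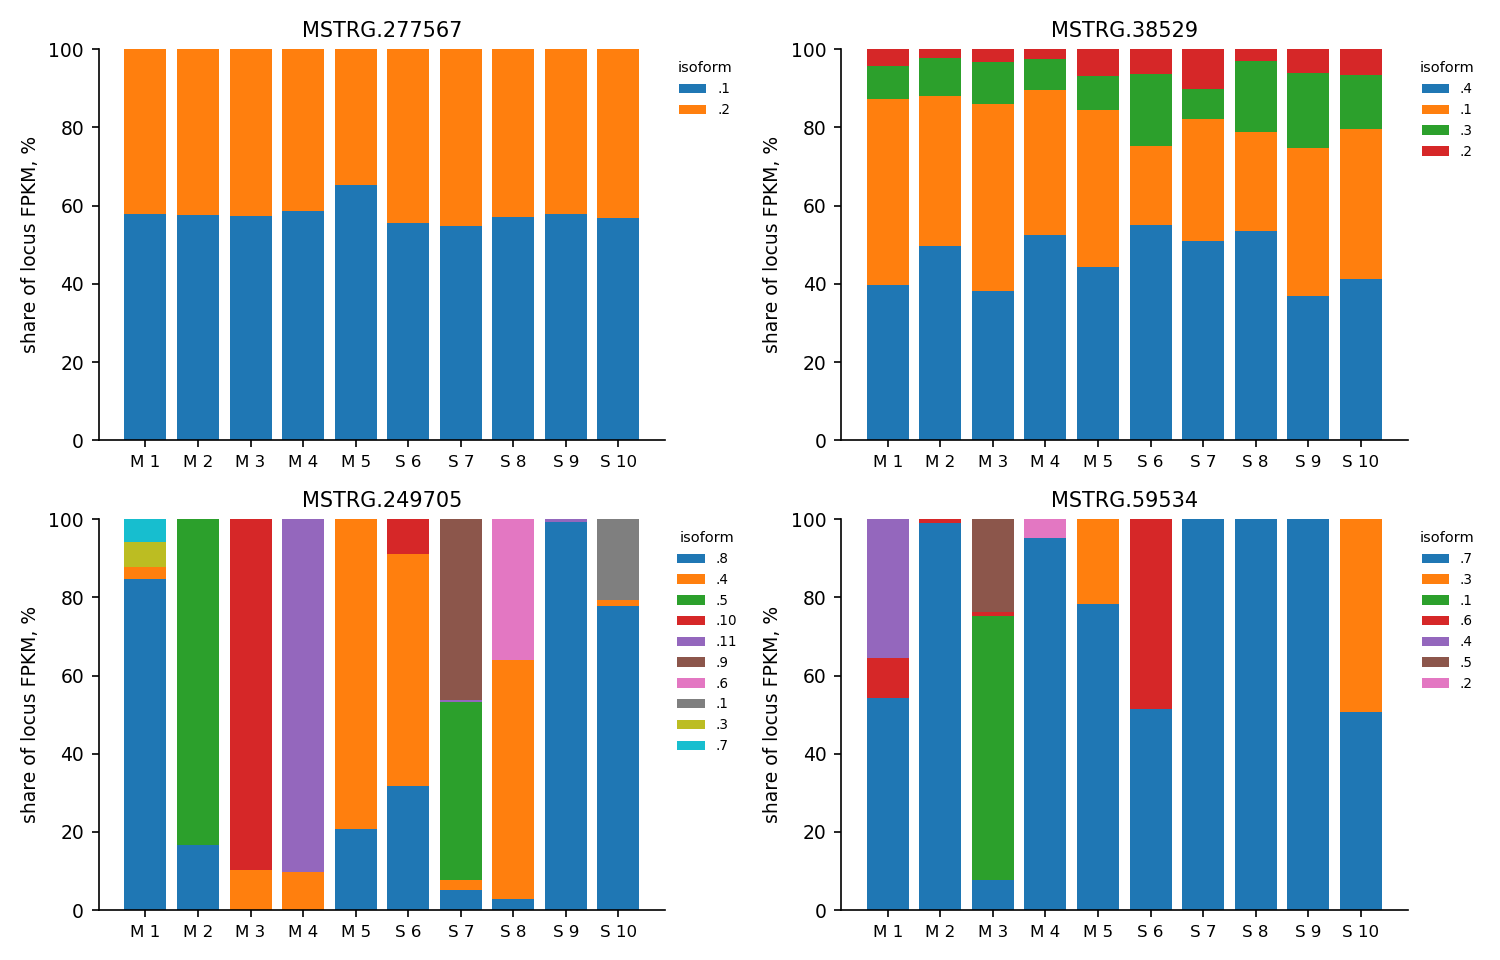
Share of locus FPKM (%) held by each isoform in MCAO/R replicates 1 to 5 (M) and sham replicates 6 to 10 (S). MSTRG.277567 keeps a similar make-up in all libraries, MSTRG.38529.1 holds between 20.2% and 47.9% of MSTRG.38529, the highest isoform of MSTRG.249705 changes from library to library in both groups, and MSTRG.59534 is led by MSTRG.59534.7 in 9 of 10 libraries.

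The loci with the most isoforms differed in the same way from each other, and their sums did not pass. MSTRG.23609 had 32 isoforms, of which 20 were above 0 in every library. Its sum averaged 63.5 ± 13.3 FPKM after MCAO/R and 66.8 ± 12.3 FPKM after sham surgery (SD, n = 5 each, log2 fold change -0.08, SE 0.29, limma adjusted p = 0.882). MSTRG.23609.3 was the highest isoform in all 10 libraries, at 40.1% to 41.2% of the locus in MCAO/R and 33.2% to 49.4% in sham.

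MSTRG.24557, with 27 isoforms, averaged 205 ± 149 and 204 ± 99.6 FPKM in the same order (limma adjusted p = 0.933). Only 4 of its isoforms were above 0 in every library, 20 were listed at 0 in 5 or more, and 8 different isoforms were the highest in 1 library or another. MSTRG.163956, with 24 isoforms, averaged 44.9 ± 9.54 and 38.9 ± 24.7 FPKM (limma adjusted p = 0.503). Of its isoforms 0 were above 0 in every library, and 8 different ones were the highest. A single isoform of it passed. MSTRG.163956.20 stood at 4.45, 1.35, 0.511, 1.45 and 4.16 FPKM in sham replicates 6 to 10, at 0.0691 and 1.60 FPKM in MCAO/R replicates 1 and 3, and was listed at 0 in the other MCAO/R libraries. The groups overlapped, and it fell by 3.30 in log2 units (SE 0.77, limma adjusted p = 0.0466), a call that was lost in 12 of 17 alternatives.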

How the data were processed

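Both tables hold FPKM as deposited by the authors, 1 column per library. The submitters' processing notes name the build Rnor_5.0; aligner, assembler, quantifier and lncRNA filter were not given in the sources used here. Isoform rows were summed by locus. Tests used limma 3.58.1 in R 4.3.3 (group as the only term, two-sided, Benjamini-Hochberg, threshold 0.05) on log2(FPKM + 0.1) of loci or isoforms with a mean of at least 0.1 FPKM, fitted on all lncRNA loci or isoforms. Balance was log2((leading + 0.1)/(others + 0.1)), with the variance trend on locus level. The procedures were tested on simulated data. The simulated noise was normal and independent between loci or isoforms, which was not checked for these data, and no result rests on that test. Values were used as deposited; alternatives covered pseudocount, filter, scaling, variance model and each library left out. Fold changes on these scales understate changes of low loci. Named loci were those with the largest changes (past the threshold, groups apart, at least 0.5 FPKM), the only balance call, the most isoforms, the highest level and the most isoforms called; the rule also asked for isoforms called in opposite directions and for exchanged leaders, of which there were 0. Members and lists were chosen with earlier results of these data known.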

Additional observations from a re-analysis of the deposited data

Results flagged for a closer look

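Of 36 sets of 5 values (a named locus or a library measure in 1 group) searched for a library far from the rest, 4 held one. About 1 in 20 sets would by chance if values were normally distributed, which was not checked for these FPKM. A set with a single value above 0 is always picked. MSTRG.61854 reached 21.9 FPKM in replicate 4 of MCAO/R, against 5.79 in the second highest library of that group. Its sham value in replicate 7, 0.0520 FPKM, was the single one above 0. MSTRG.59534 kept 4568 FPKM in replicate 2 of MCAO/R, against 748 in the second highest. MSTRG.290313 reached 9511 FPKM in replicate 7 of sham, against 2633 in the second highest.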

How the results depend on the processing

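No paired analysis was possible because the groups share no replicate number. Against 139 members higher and 298 lower, 85 were higher with a mean of at least 0.5 FPKM, 88 higher and 136 lower without the intensity trend, 87 higher with a pseudocount of 1, and 46 higher and 43 lower at an adjusted p of 0.01. The number lower was 530 with factors from annotated transcripts, 57 with factors from lncRNA rows and 88 with quantile normalization. Leaving out 1 library gave 72 to 166 higher and 99 to 409 lower. Member isoforms called, 102, became 214 with equal sums over both tables, 327 with factors from annotated transcripts and 2 with a pseudocount of 1, and 17 to 300 with 1 library left out. The single balance call became 0 on the arcsine square root of the share, 0 with a locus mean of at least 0.1 FPKM and 0 with a pseudocount of 1 (80, 144 and 81 members at an unadjusted p under 0.05 by limma), and 0 to 3 with 1 library left out. Loci whose leader differed between group means, 275, numbered 535 over all members, 114 at 1 FPKM or more and 85 with a lead of at least 1.5 times, and 274 to 294 with 1 library left out. Exchange in every library, 0, became 1 over all members and 0 to 2 with 1 library left out.

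In 4 loci that passed under none of the 20 alternatives run, the sign of the log2 fold change turned. With factors from lncRNA rows it was 0.51 for MSTRG.23609, 0.51 for MSTRG.24557 and 0.34 for MSTRG.249705, and with quantile normalization 0.019, 0.052 and 0.37. Library weights gave 0.011 for MSTRG.24557. With 1 library left out, the range was -0.18 to 0.032 for MSTRG.23609, -0.44 to 0.16 for MSTRG.24557, -0.84 to 0.25 for MSTRG.249705 and -0.23 to 1.38 for MSTRG.290313. The cause was not tested. Depth is unknown, which limits what a value of 0 in an isoform can show.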

Other observations

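Without a minimum level, 1 locus had its highest isoform exchanged in every library, and it is given here as chosen after its values were seen. MSTRG.252071 has 2 isoforms and a mean of 0.192 FPKM, below the level asked for above. MSTRG.252071.1 was listed at 0 in all 5 MCAO/R libraries and stood at 0.242, 0.210, 0.320, 0.112 and 0.215 FPKM in sham replicates 6 to 10. MSTRG.252071.2 stood at 0.0283, 0.0570, 0.0863, 0.207 and 0.255 FPKM in MCAO/R replicates 1 to 5 and at 0.0818, 0, 0, 0.0242 and 0.0843 FPKM in sham. The sum of the locus did not pass (log2 fold change -0.73, limma adjusted p = 0.245).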
